A study of Mus musculus with 9 samples.

Results

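The receptors through which splenic B cells take up survival, costimulation and death signals from tumor necrosis factor (TNF) family ligands were examined in follicular (FO) B cells and in age-associated B cells (ABCs). The set comprised 9 genes, a list of symbols drawn up with earlier results of these data known and with no threshold on their values, out of 24346 gene rows in the deposited files. These were the receptors for BAFF and APRIL (Tnfrsf13c, Tnfrsf13b and Tnfrsf17), the costimulatory receptors Cd40 and Cd27, the death receptor Fas, both TNF receptors (Tnfrsf1a and Tnfrsf1b) and the lymphotoxin receptor Ltbr. All 9 were listed in every library.

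RNA-seq had been performed on B cells sorted from spleens of wild-type C57BL6 mice, without treatment, in 3 groups of 3 libraries: FO B (Young) from mice aged 8 weeks, and FO B (Aged) and ABCs (Aged), both from mice aged 50 weeks. FO B cells were gated as B220hi CD43- cells positive for CD23 with low CD21, and ABCs as B220hi CD43- cells negative for CD23, low for CD21 and positive for CD11b and CD11c. None of the 9 receptors was used in the gates. Values were FPKM, read numbers scaled to transcript length and to the size of the library, so that levels can be compared between genes. The sources used here do not state whether the FO B cells and ABCs of aged mice came from the same animals.

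In resting B cells, BAFF-R, the product of Tnfrsf13c, binds only BAFF and carries the survival signal that mature FO B cells need, through loss of TRAF3 and the noncanonical NF-κB pathway. TACI, encoded by Tnfrsf13b, binds BAFF and APRIL and is known for class switching and for restraint of B cell numbers, and BCMA, encoded by Tnfrsf17, is a receptor of plasma cells. CD40 receives T cell help through CD40 ligand, whereas Fas receives Fas ligand from T cells and recruits FADD and caspase-8 to start apoptosis. Fas is known to rise on activated and germinal center B cells, and ABCs are antigen-experienced cells, known for T-bet expression, that accumulate with age and in autoimmunity.

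The relative depth of the libraries lay between 0.915 and 1.11, in units of FO B (Young) replicate 1, which corresponds to about 7360000 to 8950000 reads, and 10032 to 10445 genes per library reached 1 FPKM. All 8 B lineage markers examined, among them Cd79a and Ms4a1, were above 1 FPKM in every group mean. Their levels were not all equal. Against FO B (Aged), 2 were called higher in ABCs (Cd22 and Blk), 2 lower (Ebf1 and Pax5) and 4 were not called. Over all genes tested, 19.4% were called higher and 16.5% lower. Of the 7 genes that encode or report on the sorted antigens, Itgax, Itgam and Spn were higher in ABCs (Aged) than in FO B (Aged), and Fcer2a and Cr2 were lower. Spn encodes CD43, for which the cells had been gated negative, and its log2 difference was 4.06. ABC replicate 3 had lower correlations with the other ABC libraries (0.958 and 0.964) than these had with each other (0.98). Its omission was among the alternative fits, whose values are given for some of the genes only.

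Fas had the largest difference among the members tested. In ABCs (Aged) its levels were 99.3, 108 and 116 FPKM, in FO B (Aged) 13.5, 13.7 and 11 FPKM, and in FO B (Young) 9.72, 11.6 and 7.24 FPKM. Every ABC library was far above every FO B library, while the FO B groups overlapped. The mean in ABCs was 108 ± 8.15 FPKM (SD, n = 3) against 12.7 ± 1.46 in FO B (Aged), a ratio of 8.46. On the log2(FPKM + 1) scale this was a difference of 2.99 ± 0.10 (SE, 95% interval 2.75 to 3.23), with an adjusted p = 6.69e-06 by limma and a range of 7.55e-07 to 0.000279 over the alternatives. The ratio to FO B (Young) was 11.3 and the log2 difference 3.39 ± 0.15 (SE, adjusted p = 1.36e-05). The exact permutation p was 0.1 in both comparisons, the smallest that 3 against 3 libraries allow. In these bulk libraries a larger share of cells with Fas and more Fas RNA per cell cannot be told apart.

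With that increase Fas took a higher place among the expressed genes. Among the genes of a library with at least 1 FPKM, it stood between the 89.2 and 90.5 percentile in ABCs (Aged), whereas the FO B (Aged) libraries had it between 40.3 and 46 and the FO B (Young) libraries between 29.9 and 41.7. The sum of FPKM over 28 TNF receptor family genes gives another view of the same levels. Fas accounted for 11.8, 13 and 12% of that sum in the ABC libraries, against at most 1.59% in the FO B (Aged) and 1.37% in the FO B (Young) libraries. Fas ligand (Fasl) was listed at 0 in all ABC libraries and reached 0.0733 FPKM in 1 FO B (Aged) library.

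**Figure D1:**
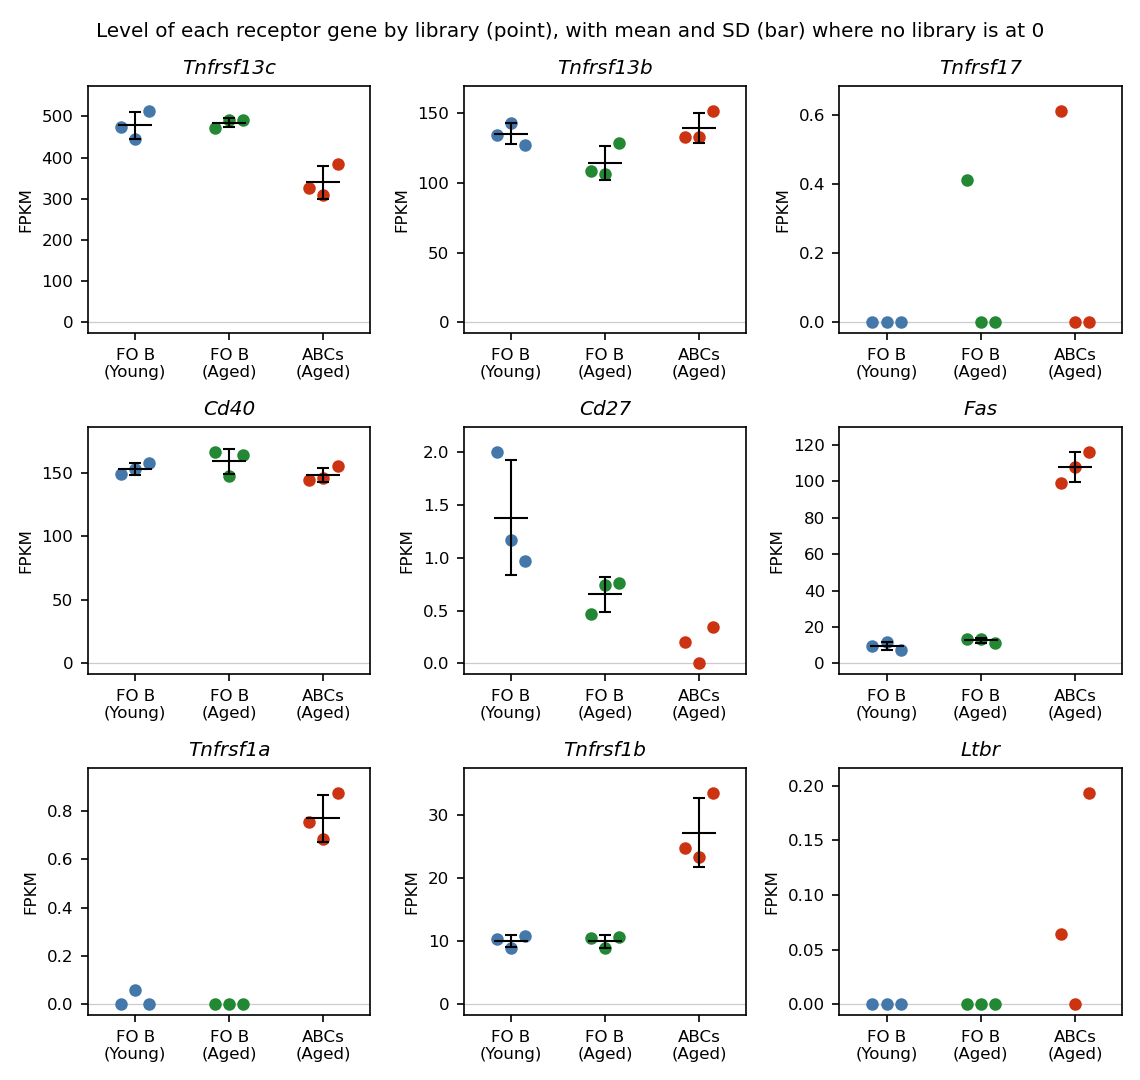
FPKM (y axis, linear, a scale of its own for each gene) of the 9 receptor genes in each library (points) of FO B (Young), FO B (Aged) and ABCs (Aged), with a horizontal mark for the mean and bars for the SD of 3 libraries where no library of the group is at 0. Fas (99.3 to 116 FPKM in ABCs) and Tnfrsf1b (23.4 to 33.4 FPKM) are high in all ABC libraries, Tnfrsf13c is low in them (308 to 384 FPKM), and Cd40 lies between 144 and 166 FPKM throughout.

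Tnfrsf1b and Tnfrsf1a encode TNFR2, which binds membrane-bound TNF and recruits TRAF1 and TRAF2 without a death domain, and TNFR1, which carries one. Tnfrsf1b was at 24.8, 23.4 and 33.4 FPKM in ABCs (Aged), 10.5, 8.87 and 10.7 FPKM in FO B (Aged) and 10.3, 8.92 and 10.8 FPKM in FO B (Young). The ABC libraries again lay above all FO B libraries, whose groups could hardly be told from each other. ABCs (27.2 ± 5.42 FPKM, SD, n = 3) exceeded FO B (Aged) (10 ± 1.01) by a ratio of 2.71, with a log2 difference of 1.34 ± 0.15 (SE, adjusted p = 0.000641). From FO B (Young) they differed by a log2 of 1.35 ± 0.15 (SE, adjusted p = 0.000476). ABC replicate 3 held the highest value, and over all settings, its omission included, the difference from FO B (Aged) stayed between 1.19 and 1.51.

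Tnfrsf1a was scarce. It was listed at 0.752, 0.681 and 0.871 FPKM in the ABC libraries, at 0 in all FO B (Aged) libraries, and at 0, 0.0585 and 0 FPKM in FO B (Young). Its values were whole multiples of a single step, which gave 12, 12 and 14 reads in ABCs, 0 in FO B (Aged) and 1 in FO B (Young). The ABC mean of Tnfrsf1a, from 38 reads, was 13.4-fold above a floor of 3 reads over the FO B (Aged) group. The counting error of the 38 reads is not part of this value. The gene fell under the filter of a mean of 1 FPKM, and without the filter its log2 difference was 0.82 (adjusted p = 0.00088) against FO B (Aged) and 0.79 (adjusted p = 0.000928) against FO B (Young). TNFR1 transcript was thus detected in each ABC library, far below the level of Tnfrsf1b in the same libraries.

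Both TNF receptors are also known from myeloid cells, whose markers were read beside them. The summed level of 13 myeloid genes was 187 to 227 FPKM in ABCs (Aged), while FO B (Aged) had 7.85 to 35.7 and FO B (Young) 8.91 to 25.8 FPKM. Adgre1, the gene for F4/80, made up most of it in ABCs (198 ± 24.1 FPKM), and without it the sums were 5.5 to 14.7 in ABCs and 4.56 to 33 in FO B (Aged). Lyz2 was at 5.1 against 3.99 FPKM and Csf1r at 0.52 against 0.384 FPKM, Cd14 was at 0.19 FPKM in ABCs, and S100a8 was at 0 there. The complement genes C1qb (2.01 against 1.01 FPKM) and C1qc (2.25 against 0.72 FPKM) had higher means in ABCs without passing the test (adjusted p = 0.154 and 0.228). Of 6 myeloid genes tested, Adgre1 was called higher and S100a9 lower, the latter not without FO B (Aged) replicate 1 or ABC replicate 1 (adjusted p up to 0.0607).

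The NK cell list summed to 27.6 to 38 FPKM in ABCs (Aged) and 0.83 to 1.52 in FO B (Aged), mostly through Prf1, and without it ABCs had 0 to 3.78 FPKM. Klrd1 was at 2.99, 3.21 and 0 FPKM in ABCs, and Ncr1 was above 0 in 1 ABC library (0.0882 FPKM). The T cell list held 8.07 to 40.9 FPKM in ABCs against 0.639 to 1.43 in FO B (Aged), mostly through Cd3g. Without Cd3g it held 2.53 to 3.9 FPKM in ABCs, above all FO B (Aged) libraries. Of this remainder, Cd5 gave 0.656, 2.43 and 2.86 FPKM in ABC replicates 1, 2 and 3. Both T cell genes tested, Cd3g and Cd5, were called higher, Cd5 with 1.98 against 0.334 FPKM (adjusted p = 0.0383, not passing without FO B (Aged) replicate 1, 2 or 3 and up to 0.166 over the alternatives). Cd3e was above 0 in 1 ABC library (0.0996 FPKM) and Thy1 was at 0 in all. The dendritic list, mostly Ccr7, held 250 to 257 FPKM in ABCs and 249 to 308 in FO B (Aged), and without Ccr7 it held 4.04 to 6.45 and 1.93 to 4.2 FPKM. Zbtb46, a gene of conventional dendritic cells, was higher in ABCs (3.17 against 0.853 FPKM, adjusted p = 0.00542), and Siglech was at 1.13 against 0.12 FPKM. Flt3 went the other way, at 1.17, 1.02 and 0.105 FPKM in ABCs against 2.85, 2.58 and 1.11 in FO B (Aged). Of the 3 dendritic genes tested, 1 was called higher and 0 lower, with a median log2 difference of −0.16. The part of such cells in the levels of the receptors and of Tnfsf13b, described further on, was not tested.

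BAFF receptors moved unequally. BAFF-R transcript was the most abundant of the 9 in every library, but Tnfrsf13c was at 327, 308 and 384 FPKM in ABCs (Aged), against 471, 490 and 490 in FO B (Aged) and 475, 446 and 512 in FO B (Young). No ABC library reached the lowest FO B library. The mean of 340 ± 39.8 FPKM (SD, n = 3) in ABCs was 0.702 of that in FO B (Aged), 484 ± 10.8, and the log2 difference was −0.51 ± 0.09 (SE, 95% interval −0.73 to −0.30, adjusted p = 0.00462, up to 0.0423 with upper-quartile scaling). The difference from FO B (Young) was −0.49 ± 0.10 (SE, adjusted p = 0.00633). Even so, Tnfrsf13c stayed between the 96.6 and 97.1 percentile of expressed genes in ABCs.

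TACI transcript did not follow. Tnfrsf13b was at 133, 133 and 151 FPKM in ABCs (Aged), 108, 106 and 128 in FO B (Aged), and 134, 143 and 127 in FO B (Young). The ABC libraries lay just above all FO B (Aged) libraries and overlapped with FO B (Young). The log2 difference from FO B (Aged) was 0.28 ± 0.09 (SE, 95% interval 0.06 to 0.51) with an adjusted p = 0.0507, on the edge of the threshold of 0.05. It passed with upper-quartile scaling (adjusted p = 0.0135), with all 9 libraries in the fit (0.0252), with the replicate number as a block (0.021) and without FO B (Aged) replicate 3 (0.0278), and reached 0.155 without FO B (Aged) replicate 1. From FO B (Young) the log2 difference was 0.04 (95% interval −0.14 to 0.22, adjusted p = 0.683). In the annotation Tnfrsf13b overlaps the pseudogene Gm12269 on the other strand.

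The ratio of both receptors within a library does not depend on the scaling between libraries. Tnfrsf13b stood at 40.6, 43.1 and 39.3% of the Tnfrsf13c level in ABCs (Aged), at 22.9, 21.7 and 26.1% in FO B (Aged), and at 28.2, 32 and 24.9% in FO B (Young). By mean, this share was larger in ABCs by a factor of 1.74 than in FO B (Aged) (1.67 to 1.84 when any 1 library was left out) and of 1.45 than in FO B (Young) (1.36 to 1.55), without overlap in either comparison (exact permutation p = 0.1, the smallest possible). FO B cells of both ages overlapped (exact permutation p = 0.2). The 2 transcripts thus changed unequally, and in the fits above Tnfrsf13c passed the test.

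BCMA transcript was near the limit of detection. Tnfrsf17 was at 0 in all FO B (Young) libraries and in all but 1 library of each other group, with 0.411 FPKM (2 reads) in FO B (Aged) replicate 1 and 0.611 FPKM (3 reads) in ABC replicate 1. A group with 0 reads allows up to 0.189 FPKM, so that no difference was detectable at this depth. The 6 genes of the plasma cell list were read beside it. They summed to 199 to 233 FPKM in ABCs against 147 to 161 in FO B (Aged), with Jchain at 61.6, 40.5 and 12.5 FPKM in ABCs against 2.73, 6.63 and 8.44, and Prdm1 at 4.46 ± 1.41 against 0.378 ± 0.291. Jchain, Prdm1 and Sdc1 were called higher, Slamf7 lower (6.68 against 14.1 FPKM), and Xbp1 and Irf4 did not pass. Jchain missed the threshold without FO B (Aged) replicate 1 or ABC replicate 1 or 2 (adjusted p up to 0.067), Sdc1 without FO B (Aged) replicate 1 or 3 (up to 0.0523) and Slamf7 without FO B (Aged) replicate 1, 2 or 3 (up to 0.11).

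**Figure D2:**
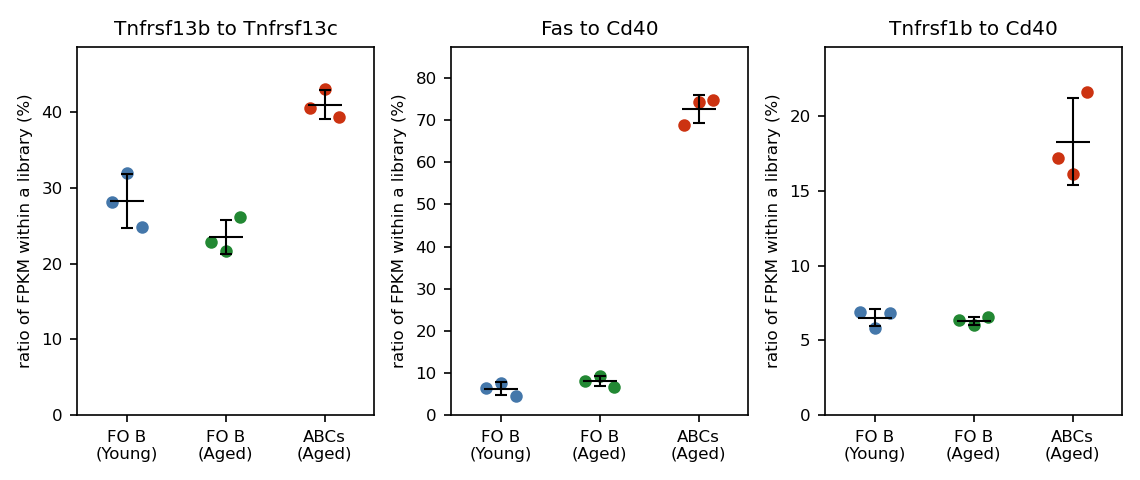
Ratio of 2 receptor transcripts within a library, in percent of FPKM (y axis, from 0), for Tnfrsf13b to Tnfrsf13c, Fas to Cd40 and Tnfrsf1b to Cd40. Points are libraries, and marks with bars are the mean and SD of 3 libraries per group. All ABC libraries lie above all FO B libraries in each panel, with means of 41, 72.6 and 18.3% in ABCs against 23.5, 8.05 and 6.3% in FO B (Aged).

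The transcript of CD40 differed little between the groups. Cd40 levels were 144, 146 and 155 FPKM in ABCs (Aged), 166, 147 and 164 in FO B (Aged), and 149, 153 and 158 in FO B (Young). All 3 groups overlapped. The log2 difference of ABCs from FO B (Aged) was −0.10 (95% interval −0.26 to 0.07, adjusted p = 0.304) and from FO B (Young) −0.05 (95% interval −0.18 to 0.09, adjusted p = 0.547), which bounds any change in Cd40 to ratios of 0.833 to 1.05 and 0.88 to 1.06. The direction turned to 0.08 and 0.00 with upper-quartile scaling, which moved the median of all genes to 0.15 and 0.03.

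Fas and Tnfrsf1b were therefore also set against Cd40 in the same library, which needs no scaling between libraries. Fas stood at 68.9, 74.2 and 74.7% of the Cd40 level in ABCs (Aged), at 8.15, 9.26 and 6.75% in FO B (Aged), and at 6.53, 7.62 and 4.58% in FO B (Young). By mean, ABCs exceeded the FO B groups 9.01-fold and 11.6-fold. Tnfrsf1b stood at 17.2, 16.1 and 21.6% of Cd40 in ABCs and at 6.36, 6.01 and 6.54% in FO B (Aged), a ratio of 2.9 (2.64 to 3.08 when any 1 library was left out). Neither ratio overlapped between ABCs and either FO B group (exact permutation p = 0.1 for each).

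Cd27, the receptor for CD70 and a marker of memory B cells in humans, was low in every group. It was listed at 2, 1.17 and 0.966 FPKM in FO B (Young), at 0.467, 0.741 and 0.76 in FO B (Aged) and at 0.206, 0 and 0.345 in ABCs (Aged), 3 sets of values that do not overlap. Between FO B groups the log2 difference was −0.50 ± 0.21 (SE, adjusted p = 0.358). ABCs fell under the filter with either FO B group. Without the filter the log2 difference of ABCs was −0.49 from FO B (Aged) (adjusted p = 0.0514) and −0.99 from FO B (Young) (adjusted p = 0.0143). Cd27 overlaps Vamp1 and Mir8113 in the annotation and its values showed no whole-read step, so that reads of the overlapping genes cannot be told apart from its own.

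Ltbr, which binds lymphotoxin α1β2 and is mainly a receptor of stromal and myeloid cells, was at 0 in all 6 FO B libraries. In ABCs (Aged) it was at 0.0648, 0 and 0.193 FPKM, or 1, 0 and 3 reads. Without a filter the log2 difference was 0.11 (adjusted p = 0.31), and the FO B groups allow up to 0.0602 FPKM.

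Of the 9 receptors, 5 passed the filter in the comparison of ABCs (Aged) with FO B (Aged), and limma called 2 higher (Fas and Tnfrsf1b) and 1 lower (Tnfrsf13c). Of the 10412 genes tested, 19.4% were called higher and 16.5% lower. Of these calls 54% were higher, and 80.3% were so with upper-quartile scaling. Values of ABCs and FO B (Aged) did not overlap for 4 of the 5 tested members, and 52.6% of all genes tested did not overlap either. The median log2 difference of the 5 was 0.28 against −0.01 over all genes. Against FO B (Young), 2 of 5 members were again higher and 1 lower, where 21.6% and 19.1% of 10438 genes were called, and 3 of 5 did not overlap, where 55.3% of genes did not. These comparisons share the ABC libraries. At the thresholds of the study, a log2 change above 2.3 with an adjusted p under 0.01, Fas was the 1 member called, where 1.49% of genes passed against FO B (Aged) and 1.72% against FO B (Young).

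**Figure D3:**
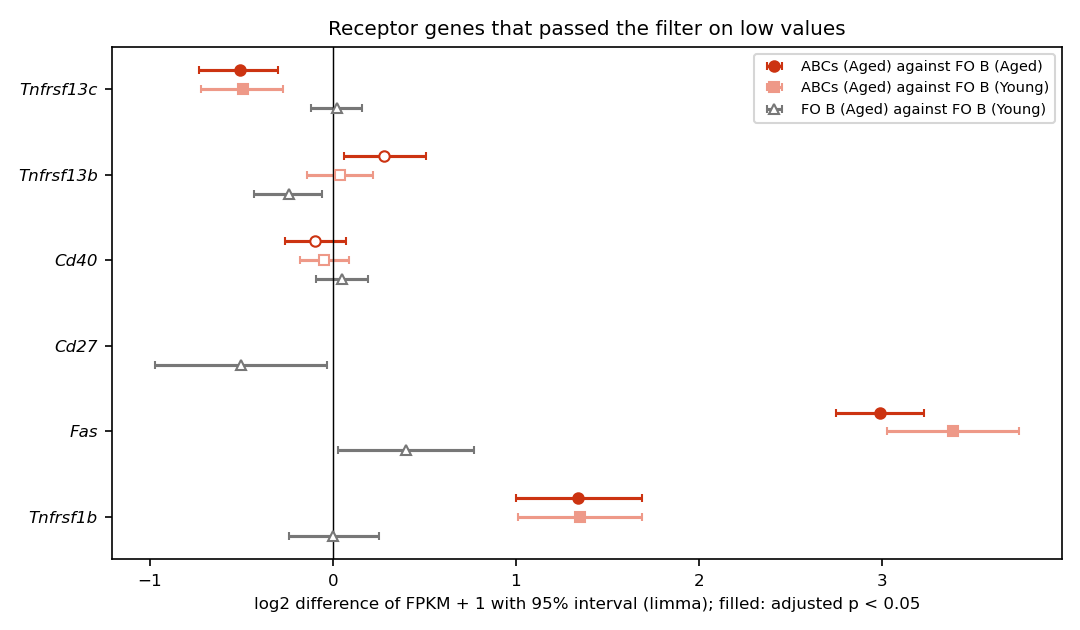
Difference of log2(FPKM + 1) (x axis) with its 95% interval from limma for the receptor genes that passed the filter, in the 3 comparisons. Filled symbols passed an adjusted p of 0.05. Fas (2.99 and 3.39) and Tnfrsf1b (1.34 and 1.35) lie to the right and Tnfrsf13c (−0.51 and −0.49) to the left when ABCs are compared with FO B cells, and all symbols of aged against young FO B cells are open.

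Age alone, compared within FO B cells, gave no call among the 9 receptors. Of the 6 members tested by limma, 0 passed the adjusted p of 0.05, where 0.346% of 10122 genes were called higher and 0.119% lower. An unadjusted p under 0.05 was found for 3 of the 6 members and for 1298 of the 10122 genes. Tnfrsf13b had a log2 difference of −0.24 ± 0.08 (SE, unadjusted p = 0.0166, adjusted p = 0.255), Fas 0.40 ± 0.16 (SE, unadjusted p = 0.0359, adjusted p = 0.345) and Cd27 −0.50 ± 0.21 (SE, unadjusted p = 0.0394, adjusted p = 0.358). Of these 3, Cd27 alone did not overlap between the ages, a pattern of 18.6% of all genes tested. Cd40 (0.05, 95% interval −0.09 to 0.19), Tnfrsf13c (0.02, −0.12 to 0.16) and Tnfrsf1b (0.00, −0.24 to 0.25) had intervals that include 0.

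The order of the receptors by FPKM was Tnfrsf13c, Cd40 and Tnfrsf13b at the head of each group. Neighbours did not overlap in FO B cells, whereas Cd40 and Tnfrsf13b did in ABCs, where Fas came next at 108 FPKM, below every Tnfrsf13b library. Fas and Tnfrsf1b followed in FO B (Aged) without overlap and overlapped in FO B (Young). The 9 receptors together held 86.4 to 87.4% of the summed FPKM of the 28 family genes in ABCs and 89.2 to 90.3% in FO B cells. Tnfrsf13c fell from a share of 54.7 to 57% in FO B (Aged) to 37 to 40% in ABCs.

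The promoter windows of 4 receptors, Fas, Tnfrsf1b, Tnfrsf1a and Tnfrsf13c, are shown. Of these, 3 passed the test, and the ABC mean of Tnfrsf1a was 13.4-fold above the FO B (Aged) floor. Cd27, whose low values also did not overlap between ABCs and either FO B group, is not shown. Each window spans the 250 bases before the RefSeq start on GRCm38.p6, 5′ to 3′ on the strand of the gene. Capitals mark an AP-1 motif (TGANTCA) or a T-box core (AGGTGT), searched on both strands after the windows had been seen.
Fas, chr19:34290409-34290658, plus strand: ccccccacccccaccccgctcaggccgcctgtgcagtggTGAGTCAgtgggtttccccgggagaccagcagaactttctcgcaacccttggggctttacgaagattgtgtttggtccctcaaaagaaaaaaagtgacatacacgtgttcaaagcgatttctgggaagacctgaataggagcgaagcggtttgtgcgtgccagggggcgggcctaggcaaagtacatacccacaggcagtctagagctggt
Tnfrsf1b, chr4:145246871-145247120, minus strand: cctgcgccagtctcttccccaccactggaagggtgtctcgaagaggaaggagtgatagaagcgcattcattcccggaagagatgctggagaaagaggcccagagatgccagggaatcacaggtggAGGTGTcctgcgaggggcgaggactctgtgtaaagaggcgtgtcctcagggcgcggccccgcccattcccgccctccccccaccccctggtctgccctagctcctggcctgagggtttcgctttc
Tnfrsf1a, chr6:125349473-125349722, plus strand: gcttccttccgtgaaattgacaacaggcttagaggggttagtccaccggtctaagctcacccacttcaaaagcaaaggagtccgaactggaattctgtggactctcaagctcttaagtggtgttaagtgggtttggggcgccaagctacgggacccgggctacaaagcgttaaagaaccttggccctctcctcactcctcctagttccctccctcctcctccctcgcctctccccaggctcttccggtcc
Tnfrsf13c, chr15:82224381-82224630, minus strand: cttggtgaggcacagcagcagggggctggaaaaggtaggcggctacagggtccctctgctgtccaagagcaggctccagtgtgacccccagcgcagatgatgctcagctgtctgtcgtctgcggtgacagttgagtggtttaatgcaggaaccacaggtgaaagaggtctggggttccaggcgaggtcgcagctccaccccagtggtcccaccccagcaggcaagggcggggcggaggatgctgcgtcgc

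The Fas window holds 1 AP-1 motif 211 bases before the start, and that of Tnfrsf1b 1 T-box core 125 bases before it. Across 32851 promoter windows of the same length, 6.75% hold the first and 11.8% the second, and neither motif was found in the Tnfrsf1a and Tnfrsf13c windows. The κB consensus, present in 3.9% of windows, was not found in the 4 windows. These matches describe the letters of the windows and not binding. RefSeq windows were found for 8 of the 9 members, all but Cd40. In GENCODE M21 on GRCm38, Fas lies on chromosome 19 from 34290666 to 34327772 (plus strand), Tnfrsf1b on chromosome 4 from 145213463 to 145246870 (minus strand), Tnfrsf13c on chromosome 15 from 82221743 to 82224369 (minus strand), Tnfrsf13b on chromosome 11 from 61126755 to 61149372 (plus strand) and Cd40 on chromosome 2 from 165055627 to 165072948 (plus strand). Cd27, Ltbr and Tnfrsf1a, the 3 of the scarce receptors on chromosome 6, lie within 129863 bases, with Ltbr 35476 bases from Tnfrsf1a and 69560 from Cd27. Tnfrsf1a spans 125349362 to 125362484 (plus strand) in GENCODE M21. Its RefSeq window therefore lies within the gene as GENCODE places it.

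A list of 17 TNF family ligands held those of the 9 receptors and of other receptors of the family. Tnfsf13b, the gene for BAFF, which myeloid and stromal cells are known to supply to B cells, was at 12.9, 10.2 and 13 FPKM in ABCs (Aged). It was at 0, 0 and 0.0756 FPKM in FO B (Aged) and at 0, 0.0766 and 0 in FO B (Young), so that each ABC library held a level that no FO B library approached. The log2(FPKM + 1) difference from FO B (Aged) was 3.66 ± 0.15 (SE, adjusted p = 1.24e-05) and from FO B (Young) 3.66 ± 0.14 (SE, adjusted p = 6.77e-06). ABCs therefore held transcripts of BAFF and of its receptors BAFF-R and TACI in the same sorted population. APRIL (Tnfsf13) was at 0 or, in ABC replicate 2, at 0.0752 FPKM. The markers Adgre1 and Zbtb46 given above were higher in the same libraries, each the 1 gene of its list called higher. The part of such cells in this level was not tested.

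Of the 8 ligands tested against FO B (Aged), 3 were higher and 3 lower, with a median of 0.50. The 3 higher ones, Tnfsf13b, Tnfsf4 and Cd70, passed the filter only through their ABC values. They could therefore only come out higher, and the count and median partly follow from the filter. Over all genes tested, 19.4% were called higher and 16.5% lower. OX40 ligand (Tnfsf4) was at 6.19, 5.6 and 2.86 FPKM in ABCs and at or below 0.088 in FO B cells (log2 difference 2.47 ± 0.25, SE, adjusted p = 0.000481). Cd70, the ligand of CD27, was at 2.33, 0.351 and 3.46 FPKM in ABCs, at 0 in FO B (Aged) and at up to 0.362 in FO B (Young). Its adjusted p was 0.0329, and when FO B (Aged) replicate 1, 2 or 3 was left out it missed the threshold, at 0.0894, 0.0825 and 0.087. Lymphotoxin β (Ltb), by contrast, was lower, at 376, 274 and 150 FPKM in ABCs against 957, 787 and 868 in FO B (Aged) (log2 difference −1.80 ± 0.30, SE, adjusted p = 0.00374). Tnf was at 5.77 ± 0.507 FPKM in ABCs against 11.9 ± 0.77 (SD, n = 3) in FO B (Aged) (−0.94 ± 0.11, SE, adjusted p = 0.000733), opposite in sign to its receptors Tnfrsf1b and Tnfrsf1a. Lta had a log2 difference of −0.78 (adjusted p = 0.0279), which missed the threshold without FO B (Aged) replicate 1, 2 or 3 (0.0976, 0.0637 and 0.0625) and without ABC replicate 1 or 2 (0.077 and 0.0752). CD40 ligand (Cd40lg) was at 0 in ABCs and at most at 0.219 FPKM elsewhere.

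TRAF adaptors and the noncanonical NF-κB pathway, which couple BAFF-R, CD40 and TNFR2 to transcription, were tested as a list of 15 genes. In ABCs 2 were higher than in FO B (Aged) and 8 lower, with a median of −0.40, where 19.4% and 16.5% of all genes were called. With upper-quartile scaling the counts were 3 higher and 3 lower. Traf1, known to be induced by NF-κB and to bind TNFR2, was higher, at 78, 71.2 and 117 FPKM in ABCs against 29.1, 25.4 and 30.6 in FO B (Aged) and 26.3, 24.4 and 18.6 in FO B (Young) (log2 difference from FO B (Aged) 1.58 ± 0.18, SE, adjusted p = 0.000781). Tank rose by a smaller step (0.40, adjusted p = 0.00928). Traf4 (−1.79, adjusted p = 0.00116) and Traf5 (−0.93, adjusted p = 0.000444) fell, as did Nfkb2, the gene for p100 (−0.67, adjusted p = 0.00428). Traf3, the adaptor that holds NIK at low levels, had a difference of −0.51 (adjusted p = 0.0165) that was over 0.05 without FO B (Aged) replicate 1 (0.0641) and without ABC replicate 1 (0.0554), and Traf3ip3 one of −0.50 (adjusted p = 0.0114). Traf3, Traf3ip3, Birc3, Map3k14 and Traf3ip2 no longer passed with upper-quartile scaling. Map3k14 missed the threshold in 6 of 16 alternatives and Traf3ip2 in 4, omissions of single libraries among them. Traf2 (0.08, adjusted p = 0.51) and Traf6 (−0.14, adjusted p = 0.256) did not pass. In the comparison with FO B (Young), 3 of the 15 were higher and 7 lower, where 21.6% and 19.1% of all genes were called.

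Downstream of Fas and TNFR1, the 17 tested genes of the death signalling list held 4 higher and 1 lower, with a median of 0.05. Over all genes tested, 19.4% were called higher and 16.5% lower. Ripk3, the kinase that starts necroptosis, was the lower gene, at 7.28, 12.2 and 6.43 FPKM in ABCs (Aged) against 36, 34.8 and 37.4 in FO B (Aged) (log2 difference −1.99 ± 0.20, SE, adjusted p = 0.000466). Among the higher genes, Tnfaip3, the gene for the NF-κB inhibitor A20, rose by 1.09 (adjusted p = 0.00179) and Ripk1 by 0.68 (adjusted p = 0.0122). The parts of the complex that Fas assembles first had smaller differences that did not pass, with Fadd at 0.29 (adjusted p = 0.149), Casp8 at −0.29 (adjusted p = 0.0566) and Cflar, the gene for the inhibitor cFLIP, at −0.15 (adjusted p = 0.238). Casp8 was called lower with quantile normalization, with TPM scaling and with all 9 libraries in the fit. Its adjusted p ran from 0.026 to 0.67 over the settings. Casp8 and Bid were called lower without ABC replicate 2, which makes 3 lower genes. Without ABC replicate 3, Rnf31 was called lower, which makes 2, and Otulin higher. With FO B (Young) as the reference, 3 were higher and 1 lower, where 21.6% and 19.1% of all genes were called.

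**Figure D4:**
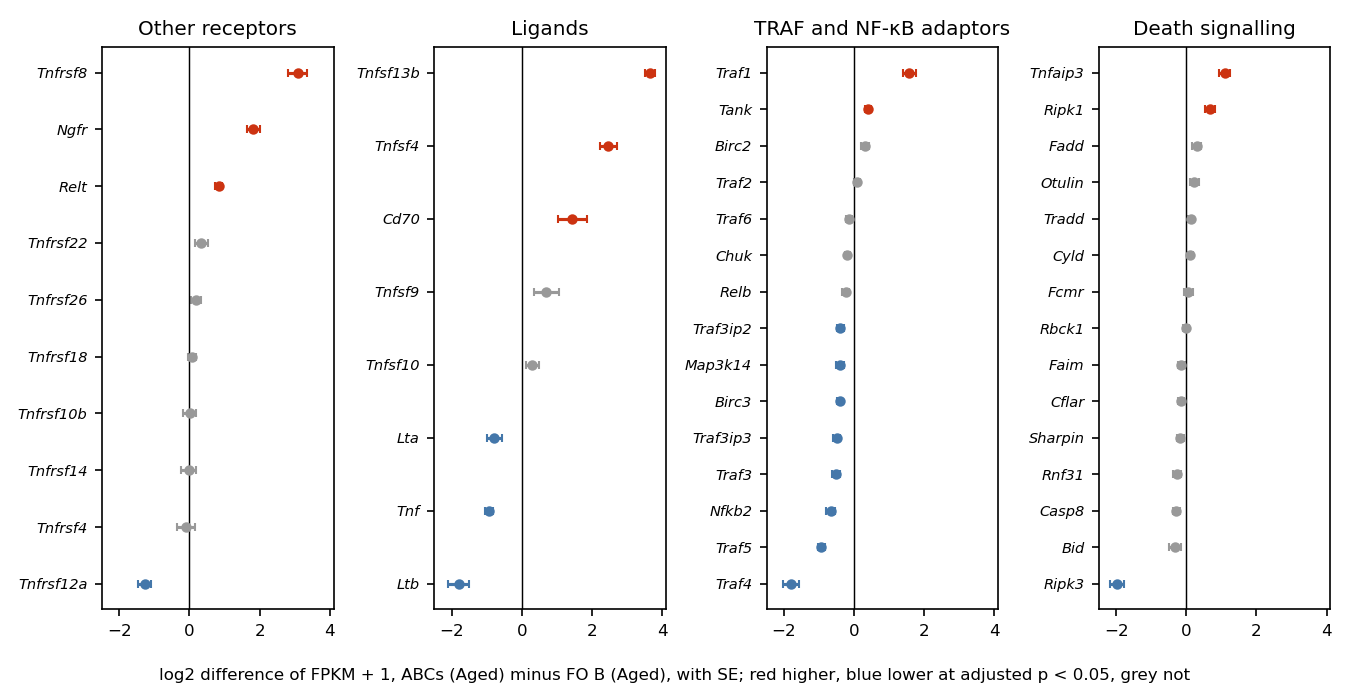
Difference of log2(FPKM + 1) between ABCs (Aged) and FO B (Aged) (x axis) with its SE from limma for tested genes of 4 lists, 2 death signalling genes left out: other TNF receptor family members, ligands, TRAF and NF-κB adaptors, and death signalling. Red points are higher and blue points lower in ABCs at an adjusted p of 0.05, grey points did not pass. Tnfsf13b (3.66), Tnfrsf8 (3.09) and Traf1 (1.58) stand to the right and Ripk3 (−1.99), Ltb (−1.80) and Traf4 (−1.79) to the left.

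Among 19 further receptors of the family 10 passed the filter. Of these, 3 were higher and 1 lower in ABCs than in FO B (Aged), with a median of 0.13. Among the higher ones, Tnfrsf8 and Ngfr had FO B (Aged) means of 0.0522 and 0.426 FPKM. They passed the filter only through their ABC values and could only come out higher. Over all genes tested, 19.4% were called higher and 16.5% lower. Tnfrsf8, the gene for CD30, was at 6.44, 5.91 and 13 FPKM in ABCs and at most 0.0825 in FO B (Aged) (log2 difference 3.09 ± 0.27, SE, adjusted p = 0.000271). Ngfr rose by 1.82 (adjusted p = 0.00038) and Relt by 0.83 (adjusted p = 0.00128), whereas Tnfrsf12a, the receptor of TWEAK, fell from 7.19 ± 0.855 to 2.4 ± 0.758 FPKM (−1.28, adjusted p = 0.00193). Against FO B (Young), 3 of 11 were higher and 2 lower, where 21.6% and 19.1% of all genes were called. The proteases Adam10 (0.18, adjusted p = 0.15) and Adam17 (0.08, adjusted p = 0.444), which shed TNF receptors and TACI, did not pass. Rhbdf2, a partner of ADAM17, had a difference of −1.05 (adjusted p = 0.04) that missed the threshold in 8 of 16 alternatives. Among them were those without FO B (Aged) replicate 1, 2 or 3 (0.123, 0.0655 and 0.11) and without ABC replicate 1 (0.0507). Between aged and young FO B cells limma called 0 genes of these 5 lists. Of the genes tested, 1 of 9 further receptors, 2 of 5 ligands, 4 of 15 adaptor genes, 4 of 17 death signalling genes and 0 of 3 shedding genes had an unadjusted p under 0.05. The same held for 1298 of all 10122 genes.

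Germinal center B cells are the other population known for high Fas. The 7 genes of that list summed to 13.3 to 17.6 FPKM in ABCs (Aged), whereas FO B (Aged) had 31.2 to 42 and FO B (Young) 29.6 to 38.2 FPKM. Bcl6 made up the difference, since the sums without it were 8.02 to 9.59, 5.65 to 6.16 and 5.72 to 6.96 FPKM. Of the 4 tested, Mki67 was called higher and Bcl6 lower in ABCs than in FO B (Aged).

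The genes whose levels ran most like each receptor over the 9 libraries were found by Pearson's r of log2(FPKM + 1) among 10374 genes, as a description in which the 3 groups set most of the likeness. For Fas these were Ackr2 (r = 0.999), H2-D1 (0.996) and Mfhas1 (0.996), of which Ackr2 went from 2.31 FPKM in FO B (Aged) to 38.3 in ABCs. Tnfrsf1b was followed most closely by Anxa6 (0.996), Sec11c (0.994) and Pla2g7 (0.994), and Tnfrsf13c by Arid4b (0.994), Erp27 (0.975) and Ilf2 (0.974). For Tnfrsf13b (Nup88 0.909 and Uqcrq 0.903) and Cd40 (Gm16023 0.941, Mthfd2 0.916, Rbbp5 0.916) the likeness was lower.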

How the data were processed

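The deposited files of the 9 libraries hold FPKM values made by the authors, with 1 row per gene symbol. SMART-Seq HT cDNA and Nextera XT libraries were read from a single end over 101 bases. The submitters' processing notes name TopHat2 2.1.1, Bowtie2 2.2.8, SAMtools 0.1.18, Cuffdiff 2.2.1 and build mm10, the methods of the study give other versions for some, and the gene annotation is not given in the sources used here. Positions came from GENCODE M21, in which 23310 of 24346 symbols had an entry, and promoters from RefSeq (GRCm38.p6).

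From the FPKM values, log2(FPKM + 1) entered limma 3.58.1 under R 4.3.3 (lmFit, then eBayes with a trend) for the 6 libraries compared and the genes whose mean over these was 1 FPKM or more, with Benjamini-Hochberg adjustment over all genes tested. A gene was called at an adjusted p under 0.05. A gene with a mean under 1 FPKM in 1 group entered the test only through the other group, so its direction was set by its entry. A fold change on this scale understates the change of low genes. For single values a two-sided exact permutation test over 20 orders was used. The script was tested on simulated data. The study gives 3 mice for each group.

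Where low values were whole multiples of a step (tolerance 0.01 of a read), reads were recovered for Tnfrsf17, Tnfrsf1a and Ltbr, with depth approximated from 324 genes with 1 transcript. Floors are 3 reads over a group and cover counting error only.

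Named genes are the 9 members, up to 5 called genes per direction of each list, the sort markers and the 3 most similar genes per member. Values of other genes (Fasl, Cd40lg, Tnfsf13, genes that did not pass, and single marker genes) were chosen after their values were seen. The members and lists were chosen with earlier results of these data known. The ratios and motifs were added after the data were seen. As alternatives, the pseudocount was 0.1 or 0.01, the filter was dropped or set at 5 FPKM, and the following were run: quantile, TPM and upper-quartile scaling, eBayes without a trend, all 9 libraries, a replicate block, the study's thresholds and leaving out each library. Python 3.11.15, numpy 2.4.6, pandas 2.3.3, scipy 1.17.1 and matplotlib 3.10.9 were used. Results of 4 genes are not reported here.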

Additional observations from a re-analysis of the deposited data

How the results depend on the processing

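FPKM values without counts limit the precision of low genes, and 3 libraries per group limit exact tests to a p of 0.1. The calls of Fas, Tnfrsf1b and Tnfrsf13c against both FO B groups kept their direction and passed an adjusted p of 0.05 in each alternative fit. With the thresholds of the study the members called higher were 1 in each ABC comparison and those called lower 0. Against FO B (Young), 2 members were lower with no filter and with TPM scaling, since Cd27 then entered the test. With no filter Tnfrsf1a entered too and was called higher by limma against FO B (Aged) and FO B (Young) (adjusted p = 0.00088 and 0.000928). Some differences that did not pass changed sign. With upper-quartile scaling Cd40 became 0.08 against FO B (Aged) and 0.00 against FO B (Young), and between FO B ages Tnfrsf13c and Tnfrsf1b became −0.11 and Cd40 −0.08. Tnfrsf13b against FO B (Young) became −0.05 with quantile normalization, −0.00 with TPM scaling and −0.02 without ABC replicate 3. Between FO B ages Tnfrsf13c ranged from −0.03 to 0.07 over the omissions of a library, the first without FO B (Young) replicate 2, and Tnfrsf1b −0.07 without that library, −0.03 and −0.04 without FO B (Aged) replicates 1 and 3, and −0.00 with TPM scaling. The cause was not tested. Upper-quartile scaling moved the median over all genes to 0.15, 0.03 and −0.12 in the 3 comparisons and the share of calls that were higher from 54 to 80.3%, from 53 to 66.6% and from 74.5 to 47.1%. Its counts were 2459 higher and 603 lower against FO B (Aged), where the reported counts were 2020 and 1719, and 1847 and 927 against FO B (Young), where they were 2252 and 1996.

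Whether replicate numbers pair the libraries cannot be decided with 3 libraries per group. Same-numbered ABC and FO B (Aged) libraries had correlations of their deviations of 0.085, −0.019 and 0.108. Those with different numbers lay between −0.108 and 0.059. The replicate block moved the counts against FO B (Aged) to 1891 higher and 1557 lower, against FO B (Young) to 1947 and 1561 from 2252 and 1996, and between FO B ages to 28 and 9 from 35 and 12. Among the members it took Tnfrsf13b against FO B (Aged) past the threshold (adjusted p = 0.021).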
